A study of Mus musculus with 4 samples.

Results

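The genes described here are 38 genes of skeletal muscle, chosen by name from 24771 features with an expression value: transcription factors of the muscle lineage and genes of the sarcomere, of excitation-contraction coupling, of the end plate and of energy supply. All 38 symbols were found once. Expression was measured by RNA-seq in 2 samples of salivary gland (SG) placodes derived from pluripotent stem cells (PSCs) and in 2 samples of submandibular glands (SMGs) of mouse embryos. The placodes were aggregates on day 10 of differentiation from 1 line of mouse embryonic stem cells. They were seeded at 3000 cells per well with 2% Matrigel, given BMP4 at 2 ng/ml on day 3 and, on day 4, bFGF at 25 ng/ml with 1 µM RA, retinoic acid. FGF10 was added on day 6, at 200 ng/ml. The SMGs were taken at E12.5, and neither the strain of the embryos nor the way the glands were freed from the tissue around them is given in the sources used here. Beyond these culture factors, no treatment is listed for either group, and no altered gene is listed for either. Values are FPKM, in which a gene's fragments are divided by its transcript length and by the mapped fragments in its sample, so that levels of different genes may be set side by side.

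Skeletal muscle forms when progenitor cells switch on the transcription factors MYF5 and MYOD1, then myogenin, leave the cell cycle and fuse into myofibers. Fibers are filled with sarcomeres, in which myosin heavy and light chains pull on actin filaments, and troponin on the actin filament makes the pull depend on calcium released from the sarcoplasmic reticulum. Many of these proteins come in embryonic, perinatal, slow, fast and cardiac forms that replace one another as fibers mature. The tongue, the floor of the mouth and the jaw, which lie next to the embryonic submandibular gland, contain muscle that derives from head mesoderm and, for the tongue, from somites.

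The skeletal muscle genes were a small part of both transcriptomes, but a much larger one in the E12.5 SMGs. Their values summed to 351 FPKM in SMG sample 1 and 234 FPKM in SMG sample 2, against 19.0 and 19.3 FPKM in the placodes. As a share of the summed FPKM of a sample, they held 0.0913% and 0.0626% in the SMGs and 0.00521% and 0.00533% in the placodes. Of the 38 genes, 28 reached an FPKM of 1 in both SMG samples and 3 did so in both placode samples. Those 3 were Mylpf, Tnnt1 and Mybpc1, and Mylpf alone gave over 10 of the 19 FPKM. In both placode samples 34 genes were below 1 FPKM and 13 were listed at 0. These are values of whole tissue, in which fewer cells of a type and less RNA per cell cannot be told apart.

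Both SMG samples were above both placode samples for 34 of the 38 genes, while 34.2% of all features had this order. Mybpc1 alone had the opposite order, which 29.6% of all features had, and the groups overlapped for Mylpf, Myf6 and Ckm. In the limma test on log2(FPKM + 1), 25 genes passed the minimum mean FPKM of 1. At an adjusted p below 0.05, 23 of them were called lower in the placodes and 1 was called higher, while 40.4% of the 13193 tested features were called lower and 35.7% were called higher. A difference of at least 2-fold was called lower for 22 of the 25, against 15.2% of tested features, and was called higher for 0, against 14.1%. The median difference of the 25 was -2.80 on the log2 scale, also over the 19 of them above 0 in a placode sample, and that of all tested features was -0.05. For 22 of the 25 the mean in the placodes was below 1 FPKM, so these passed the minimum only through the SMGs and had to differ, and the counts over the genes that passed are descriptions. A fit of all 24771 features with no minimum gave 29 of the 38 genes lower and 0 higher, against 22.2% of features called lower. The labels do not say whether the samples of a group came from separate cultures or litters. Adjusted p-values set the group difference against the spread between these samples, which limma draws toward a trend over all tested features. This spread may be technical. With 2 samples in each group the smallest exact permutation p of a single gene is 0.333.

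**Figure D1:**
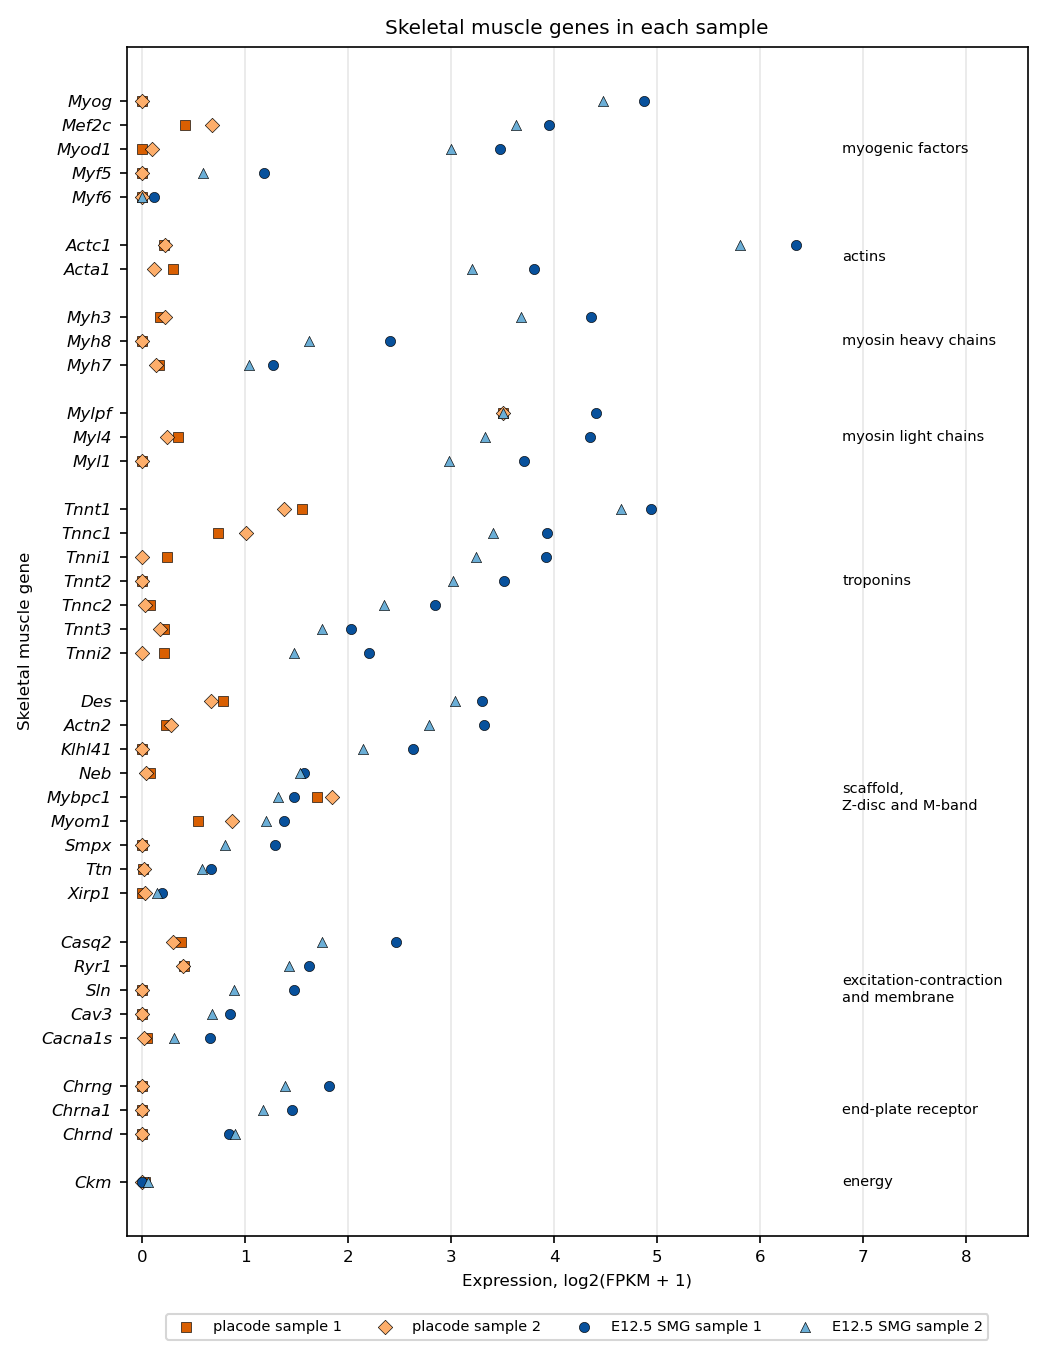
Each row is 1 of the 38 skeletal muscle genes, the x axis is expression as log2(FPKM + 1), and the 4 symbols are the 4 samples. The orange placode symbols sit close to 0 for most genes, and the blue SMG symbols sit to their right except for Mylpf, Mybpc1, Myf6 and Ckm.

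Sequence just before the transcription start is shown for 1 gene of each functional group below except energy, so that the short motifs bound by muscle transcription factors can be seen in place. MYOD1 and its relatives bind E-boxes (CANNTG, with CAGCTG as a form they favour), MEF2 proteins bind an AT-rich MEF2 site, and serum response factor binds the CArG box of actin genes. Each window is the 150 bases upstream of a RefSeq start site in GRCm38.p6, printed 5′ to 3′ on the strand of the gene and holding no annotated exon. Within its functional group, each gene is the one with the highest mean level in the SMGs among those with such a window. Mef2c had a further such window, at chr13:83573457-83573606, plus strand, which held none of the marked motifs. Its window at the start furthest upstream is printed. Capitals mark CANNTG, the MEF2 site, the CArG box and TATAAA on either strand. The windows are at chr13:83503884-83504033, plus strand, for the transcription factor Mef2c, chr8:123894776-123894925, minus strand, for the actin Acta1, chr11:67078150-67078299, plus strand, for the myosin heavy chain Myh3, chr7:127211458-127211607, plus strand, for the light chain Mylpf, chr14:31208162-31208311, plus strand, for the troponin Tnnc1, chr1:75360142-75360291, plus strand, for desmin, chr3:102086265-102086414, plus strand, for calsequestrin 2, and chr2:73580339-73580488, minus strand, for the end-plate receptor subunit Chrna1.
Mef2c: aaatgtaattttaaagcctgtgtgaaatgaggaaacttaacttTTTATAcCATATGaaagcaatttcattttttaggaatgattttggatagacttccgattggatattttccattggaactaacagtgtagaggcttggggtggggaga
Acta1: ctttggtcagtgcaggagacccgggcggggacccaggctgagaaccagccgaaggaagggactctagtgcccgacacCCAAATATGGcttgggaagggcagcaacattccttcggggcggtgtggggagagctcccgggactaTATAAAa
Myh3: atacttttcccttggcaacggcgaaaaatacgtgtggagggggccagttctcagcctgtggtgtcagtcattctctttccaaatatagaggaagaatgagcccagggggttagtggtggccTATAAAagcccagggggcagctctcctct
Mylpf: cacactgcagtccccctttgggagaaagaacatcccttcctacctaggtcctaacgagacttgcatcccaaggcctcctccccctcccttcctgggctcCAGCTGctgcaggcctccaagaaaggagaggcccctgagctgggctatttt
Tnnc1: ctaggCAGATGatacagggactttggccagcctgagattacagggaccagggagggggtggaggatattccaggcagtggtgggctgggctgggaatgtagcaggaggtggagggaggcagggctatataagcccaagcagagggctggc
Des: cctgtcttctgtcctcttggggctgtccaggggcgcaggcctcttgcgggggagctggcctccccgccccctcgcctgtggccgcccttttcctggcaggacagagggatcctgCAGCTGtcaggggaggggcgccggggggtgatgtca
Casq2: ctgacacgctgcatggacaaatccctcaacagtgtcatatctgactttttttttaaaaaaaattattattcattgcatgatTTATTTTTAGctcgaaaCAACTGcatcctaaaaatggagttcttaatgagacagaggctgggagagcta
Chrna1: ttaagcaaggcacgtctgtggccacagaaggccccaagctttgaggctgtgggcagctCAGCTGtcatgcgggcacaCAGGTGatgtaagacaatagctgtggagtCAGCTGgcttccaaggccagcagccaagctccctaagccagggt

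The Acta1 window held a CArG box whose first base lies 73 bases before the start and a TATAAA 7 bases before it. These distances are from the RefSeq start at base 123894775. In the GENCODE annotation Acta1 begins further downstream, at base 123894751, which makes both distances larger. In the Casq2 window a MEF2 site began 69 bases and an E-box 52 bases before the start. The Chrna1 window held 3 E-boxes, 2 of them CAGCTG, and those of Des and Mylpf held 1 CAGCTG each. For Mylpf the RefSeq start is at base 127211608. The GENCODE gene begins upstream of it, at base 127208890, so the Mylpf window lies inside that gene. For Des the RefSeq start is at base 75360292, and the GENCODE gene begins further downstream, at base 75360329. Over 250 bases upstream of the start, 30 of the 38 genes had at least 1 RefSeq window. CANNTG, on both strands, was found for 25 of these 30 (83.3%), against 69.3% of 27025 genes with a window. CAGCTG, which is contained in CANNTG, was found for 13 (43.3%) against 14.7% of genes. The MEF2 site was found for 4 genes (13.3%, against 3.42%), the CArG box for 3 (10%, against 1.62%) and TATAAA for 6 (20%, against 14.3%). These are matches of letters and carry no test.

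The myogenic factors were led by Myog, the gene of myogenin, which drives differentiation of myoblasts. Myog (chr1:134289989-134292548, plus strand, GRCm38) was at 28.3 and 21.2 FPKM in the SMGs and was listed at 0 in both placode samples (limma adjusted p = 1.22e-06). Myod1, which commits cells to the muscle lineage, was at 10.1 and 6.99 FPKM in the SMGs, and at 0 and 0.0648 FPKM in the placodes. Its log2 fold change, placodes minus SMGs, was -3.19 ± 0.17 (SE, adjusted p = 1.11e-05). Mef2c, a partner of the myogenic factors that is also used in heart, vessels, neural crest and neurons, was at 14.4 and 11.4 FPKM against 0.335 and 0.599 FPKM, a log2 fold change of -3.24 ± 0.15 (SE, adjusted p = 6e-06).

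Genes of the first and the last steps of the myogenic series were low in both groups. Myf5, the earliest of the factors in the embryo, was at 1.27 and 0.508 FPKM in the SMGs and listed at 0 in the placodes. Myf6, the gene of MRF4, which is used in maturing fibers, was at 0.0794 and 0 FPKM in the SMGs and also listed at 0 in the placodes. Neither passed the minimum, and without it their adjusted p was 0.102 and 0.480. Within the SMGs, Myog was 2.79 and 3.03 times as high as Myod1, and Myod1 was 7.99 and 13.8 times as high as Myf5.

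Of all 38 genes, Actc1 had the highest level in the SMGs. It encodes cardiac alpha-actin, the main alpha-actin of embryonic skeletal muscle as well as of the heart. Actc1 (chr2:114047282-114053548, minus strand) was at 80.4 and 55.0 FPKM in the SMGs, 67.7 ± 17.9 (SD, n = 2), and at 0.158 and 0.165 FPKM in the placodes. Its log2 fold change of -5.86 ± 0.17 (SE) was the lowest of the 25 tested genes (limma adjusted p = 9.59e-07). Acta1, the skeletal alpha-actin that takes over later, was at 13.0 and 8.20 FPKM against 0.227 and 0.0835 FPKM, a log2 fold change of -3.30 ± 0.21 (SE, adjusted p = 2.02e-05). The level of Actc1 was 6.20 and 6.70 times that of Acta1 in the SMG samples. The coding sequences of the 2 actins are close to identical, so reads may have been split between them.

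Among the myosin heavy chains, the embryonic form stood first. Myh3, the embryonic chain, was at 19.6 and 11.8 FPKM in the SMGs and at 0.124 and 0.169 FPKM in the placodes, a log2 fold change of -3.82 ± 0.22 (SE, adjusted p = 1.42e-05). Myh8, the perinatal chain, was at 4.31 and 2.08 FPKM in the SMGs and listed at 0 in the placodes (adjusted p = 4.72e-04). Myh7, the slow chain, was at 1.41 and 1.05 FPKM against 0.117 and 0.0958 FPKM. It missed the minimum and had an adjusted p of 0.0147 in the fit without one. Myh3 was 4.54 and 5.66 times as high as Myh8 and 13.9 and 11.2 times as high as Myh7 in SMG samples 1 and 2. The adult fast chains Myh1, Myh2 and Myh4, from a wider list of muscle genes, stayed at or below 0.503 FPKM in every sample. These genes are close copies, and reads in shared stretches cannot be assigned with certainty.

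The 3 myosin light chain genes differed among themselves. Myl1, the essential light chain of fast fibers, was at 12.1 and 6.88 FPKM in the SMGs and listed at 0 in both placode samples (adjusted p = 3.26e-05). Myl4, the essential chain of embryonic muscle and of the atria, was at 19.4 and 9.06 FPKM against 0.276 and 0.179 FPKM, a log2 fold change of -3.55 ± 0.31 (SE, adjusted p = 9.12e-05). Myl4 was 1.61 and 1.32 times as high as Myl1.

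Mylpf, the regulatory light chain of fast skeletal muscle, was the one tested gene without a call. Mylpf (chr7:127208890-127214298, plus strand) was at 10.3 and 10.4 FPKM in the placodes, and at 20.2 and 10.3 FPKM in the SMGs. The second SMG sample lay at the level of the placodes, and the groups overlapped. The log2 fold change was -0.45 with a 95% interval from -1.10 to 0.20 (limma adjusted p = 0.168). Without SMG sample 2 it was -0.90 (adjusted p = 0.00234), and without SMG sample 1 it was below 0.01 in size (adjusted p = 0.997). A fit that leaves out 1 sample takes the spread within groups from the other group, so the lone sample is assumed to vary like it. None of the other 37 genes reached 3 FPKM in a placode sample.

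Troponin genes were lower in the placodes in 7 of 7 cases, against 40.4% of tested features, and for all 7 both SMG samples were above both placode samples, against 34.2% of features. Of the 7, Tnnt1 alone reached 1 FPKM in both placode samples. The others had placode means below 1 FPKM, so they passed the minimum only through the SMGs and had to differ. The count of troponin genes called lower is thus a description. Slow forms were above fast forms in the SMGs. Tnnt1, slow troponin T, was at 29.8 and 24.1 FPKM in the SMGs, and at 1.93 and 1.59 FPKM in the placodes, with a log2 fold change of -3.33 ± 0.12 (SE, adjusted p = 2.45e-06). Tnnt3, fast troponin T, was at 3.08 and 2.35 FPKM against 0.157 and 0.127 FPKM (log2 fold change -1.69 ± 0.14, adjusted p = 6.49e-05). Tnnt2, the cardiac form that embryonic skeletal muscle also uses, was at 10.4 and 7.09 FPKM and listed at 0 in the placodes (adjusted p = 1.06e-05).

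The inhibitory and calcium-binding subunits had the same order of forms. Tnni1, slow troponin I, was at 14.2 and 8.44 FPKM in the SMGs and at 0.184 and 0 FPKM in the placodes (log2 fold change -3.46 ± 0.23, adjusted p = 2.71e-05). Tnni2, its fast form, was at 3.61 and 1.79 FPKM against 0.154 and 0 FPKM (log2 fold change -1.74 ± 0.24, adjusted p = 8.19e-04). Tnnc1, the troponin C of slow fibers and heart, was at 14.2 and 9.63 FPKM against 0.662 and 1.01 FPKM (log2 fold change -2.80 ± 0.19, adjusted p = 3.01e-05). Slow over fast ratios of FPKM in SMG samples 1 and 2 were 9.67 and 10.3 for troponin T, 3.92 and 4.73 for troponin I and 2.29 and 2.36 for troponin C. Tnnc2, fast troponin C, was at 6.20 and 4.09 FPKM against 0.0552 and 0.0160 FPKM (log2 fold change -2.55 ± 0.18, adjusted p = 3.45e-05), and it shares exon sequence with Ube2c on the other strand.

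By mean level in the SMGs, genes of the scaffold, Z-disc and M-band were led by Des, and the lowest of them was Xirp1. Actn2 was above Des in SMG sample 1 and below it in SMG sample 2. Des, the intermediate filament desmin that ties sarcomeres together, was at 8.82 and 7.19 FPKM in the SMGs and at 0.721 and 0.585 FPKM in the placodes (log2 fold change -2.44 ± 0.13, adjusted p = 9.47e-06). Actn2, the alpha-actinin that anchors actin at the Z-disc, was at 9.01 and 5.90 FPKM against 0.174 and 0.214 FPKM (log2 fold change -2.80 ± 0.19, adjusted p = 2.62e-05). Klhl41, which stabilizes nebulin and thin filaments, was at 5.21 and 3.42 FPKM and listed at 0 in the placodes (adjusted p = 4.33e-05). For these genes the 2 groups were far apart.

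The giant filament proteins were low in FPKM and also apart. Neb, the gene of nebulin, the ruler of the thin filament, was at 1.98 and 1.90 FPKM against 0.0546 and 0.0258 FPKM. Ttn, the gene of titin, which spans the sarcomere from Z-disc to M-band, was at 0.586 and 0.492 FPKM against 0.00638 and 0.0114 FPKM. Both missed the minimum, and without it their adjusted p was 0.00216 and 0.00684. Smpx, a small muscle protein, was at 1.45 and 0.750 FPKM with 0 in both placode samples, and Xirp1, an actin-binding repeat protein, was at 0.139 and 0.104 FPKM against 0 and 0.0171 FPKM. In the fit without a minimum, Xirp1 was called (adjusted p = 0.0285) and Smpx was not (adjusted p = 0.0512).

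In Mybpc1 and Myom1 the differences were small. Mybpc1 (chr10:88518279-88605152, minus strand), the slow myosin-binding protein C of the thick filament, was at 2.24 and 2.60 FPKM in the placodes and at 1.78 and 1.49 FPKM in the SMGs. Its log2 fold change was 0.37 with a 95% interval from 0.08 to 0.67 (limma adjusted p = 0.0279), the one call in that direction. The call was lost without placode sample 1 (adjusted p = 0.05002), without placode sample 2 (0.114), without SMG sample 2 (0.103) and with no minimum (0.113). Myom1, the M-band protein myomesin, was at 0.452 and 0.831 FPKM in the placodes and at 1.60 and 1.30 FPKM in the SMGs, with a difference of -0.58 ± 0.15 on the log2 scale (SE, adjusted p = 0.0137). This call was lost without placode sample 1 (adjusted p = 0.0610), without SMG sample 1 (0.0809) and with no minimum (0.101). Each of the 2 genes shares exon sequence with a gene on the other strand, Gm48752 for Mybpc1 and Myl12a for Myom1, as do 11 of the 38 genes in all, and the strandedness of the counting is not given in the sources used here.

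**Figure D2:**
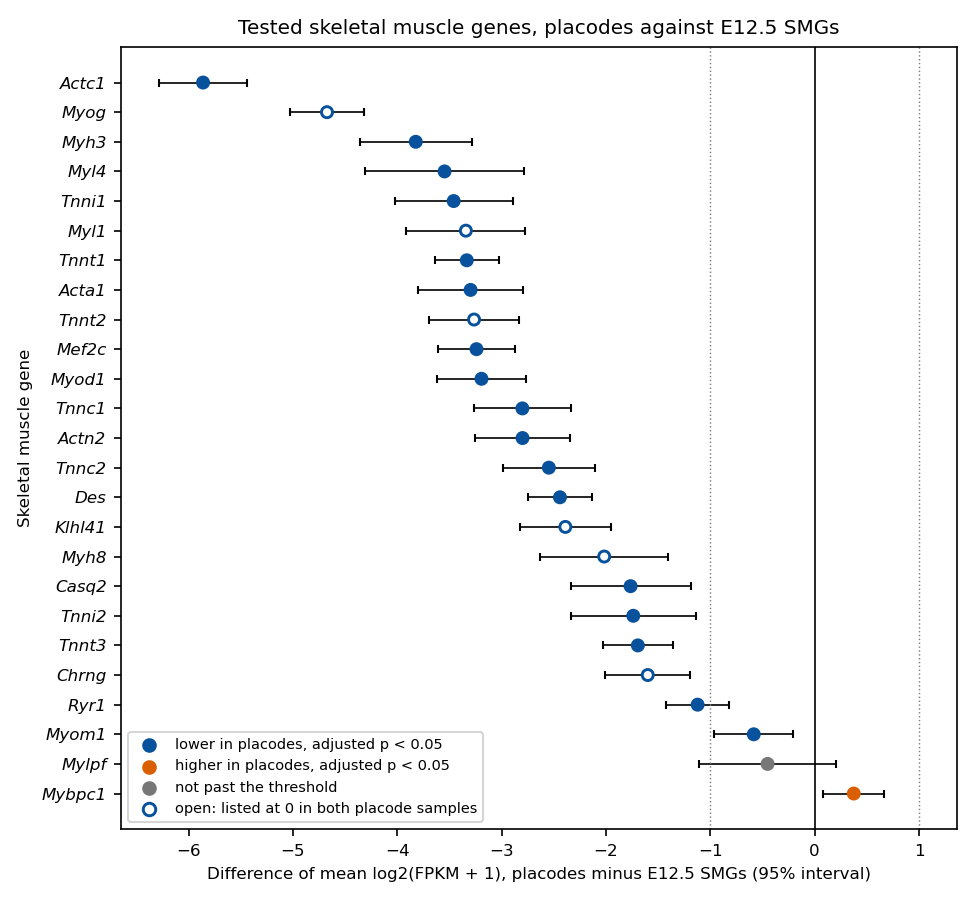
The x axis is the difference of mean log2(FPKM + 1), placodes minus E12.5 SMGs, for the 25 tested skeletal muscle genes, with 95% intervals from limma, and dotted lines mark a 2-fold difference. Open symbols are genes listed at 0 in both placode samples, whose size depends on the pseudocount of 1. Mybpc1 alone is above 0 with its interval, and that of Mylpf spans 0.

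The genes of excitation-contraction coupling and of the membrane were between 0.2 and 5 FPKM in the SMGs. Casq2, a calcium store protein of the sarcoplasmic reticulum in slow muscle and heart, was at 4.53 and 2.35 FPKM in the SMGs, and at 0.299 and 0.234 FPKM in the placodes (log2 fold change -1.76 ± 0.24, adjusted p = 6.45e-04). Ryr1, the calcium release channel of skeletal muscle, was at 2.07 and 1.69 FPKM against 0.325 and 0.316 FPKM (log2 fold change -1.12 ± 0.12, adjusted p = 2.63e-04). Cacna1s, the voltage sensor that opens it, was at 0.575 and 0.240 FPKM against 0.0314 and 0.00964 FPKM, without a call in the fit with no minimum (adjusted p = 0.132). Both SMG samples were above both placode samples for the 5 genes of this group, while 34.2% of all features had this order.

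Sln and Cav3 were listed at 0 in both placode samples. Sln, the gene of sarcolipin, a small inhibitor of the calcium pump, was at 1.78 and 0.854 FPKM in the SMGs. Cav3, the caveolin of muscle, was at 0.809 and 0.596 FPKM. With no minimum, Cav3 was called (adjusted p = 0.0150) and Sln was not (adjusted p = 0.0586).

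Of the subunits of the acetylcholine receptor at the end plate, Chrng, Chrna1 and Chrnd were detected in the SMGs and listed at 0 in both placode samples. Chrng, the gamma subunit of the fetal receptor, was at 2.51 and 1.61 FPKM in the SMGs (adjusted p = 2.02e-04). Chrna1, the subunit with the main binding site for acetylcholine, was at 1.75 and 1.26 FPKM, and Chrnd was at 0.795 and 0.873 FPKM. Without a minimum both were called, with adjusted p of 0.0130 and 0.00282. Chrne, the subunit that replaces the gamma subunit after birth, belongs to the wider list of end plate genes and was named after its values were seen. It was listed at 0 in both SMG samples and at 0 and 0.0275 FPKM in the placodes.

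Ckm, the creatine kinase of mature muscle, was the lowest of the 38 genes in the SMGs. It was at 0 and 0.0375 FPKM in the SMGs and at 0.0217 and 0 FPKM in the placodes, so the groups overlapped and no difference was detectable (adjusted p = 0.903 with no minimum).

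By mean level in the SMGs, 10 of the 38 genes were at 10 FPKM or more, in the order Actc1, Tnnt1, Myog, Myh3, Mylpf, Myl4, Mef2c, Tnnc1, Tnni1 and Acta1. A further 20 lay between 1 and 10 FPKM and 8 lay below 1 FPKM. Neighbours in the order overlapped in 32 of 37 cases. The steps without overlap came after Actc1, after Myog, and, near the end of the order, after Cav3, after Cacna1s and after Xirp1. The positions of Tnnt1 and Myog could thus not be told apart, nor those of the genes from Myh3 down to Cav3 from their next neighbours.

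The 2 SMG samples differed in these genes in 1 direction. Of the 28 genes at 1 FPKM or more in both, 28 were higher in SMG sample 1, while 54.5% of the 12504 features at this level were higher there. At least 1.2-fold higher were 26 of the 28, against 8.93% of features. The median ratio of sample 1 to sample 2 was 1.47 over the 28 genes and 1.01 over all these features. Ratios ran from 1.04 for Neb to 2.14 for Myl4. Among features between the lowest and the highest mean of the 28 genes, the 5th and 95th percentiles of the ratio were 0.804 and 1.29. Over all 38 genes, 36 were higher in SMG sample 1, and Chrnd and Ckm were not. With 1 sample on each side these ratios have no test, and genes of 1 tissue are not independent of each other.

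The summed values of other cell type lists moved less between the 2 SMG samples. The summed FPKM of the 38 genes was 1.50 times as high in sample 1 as in sample 2, that of 8 heart markers 1.28 times, of 8 smooth muscle markers 1.24 times, of 8 neuron markers 1.11 times, of 8 salivary and oral epithelium markers 1.04 times and of 8 mesenchyme markers 1.02 times. Of the muscle genes outside the 38, 48 were at 1 FPKM or more in both SMG samples, of which 41 were higher in sample 1 and 21 were at least 1.2-fold higher, with a median ratio of 1.18. Mitochondrial genes held 10.7% of the summed FPKM in SMG sample 1 and 8.07% in sample 2. Their part in the difference between the SMG samples was not tested.

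**Figure D3:**
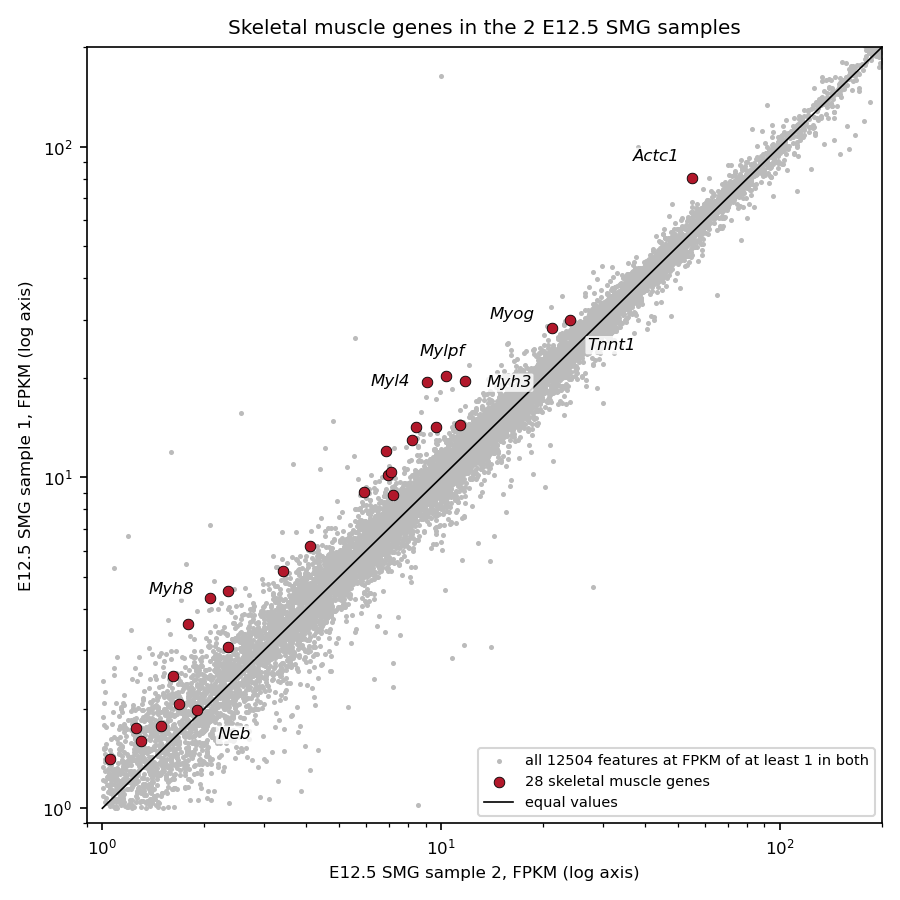
Both axes are FPKM on a log scale up to 200, E12.5 SMG sample 2 on x and sample 1 on y, with 1 point for each of the features at 1 FPKM or more in both samples. The 28 skeletal muscle genes, in red, all lie above the line of equal values, Neb closest to it and Myl4 farthest from it.

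The 4 samples were alike in the number of features detected, with 12636 to 12807 features at 1 FPKM or more and 6618 to 7164 at 0, and their FPKM summed to between 361963 and 384773. Mitochondrial genes held 5.88% to 10.7% of the sum, and hemoglobin genes 0.793% and 0.815% in the SMGs against at most 1.62e-05% in the placodes. Salivary and oral epithelium markers reached 1 FPKM in both SMG samples in 8 of 8 cases and in both placode samples in 4 of 8, and Krt5, Krt14 and Krt15 were listed at 0 in both placode samples. Of these 8 markers, 6 were lower in the placodes, against 40.4% of tested features. Sox9 (log2 fold change 2.20) and Krt19 (0.85) were higher, as were 35.7% of tested features. Mesenchyme markers summed to 1860.0 and 1819 FPKM in the SMGs against 197 and 191 FPKM in the placodes, and neuron markers to 93.7 and 84.0 FPKM against 996 and 1035 FPKM. The part of this difference in cell types in the results on muscle genes was not tested.

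Genes of muscle outside the 38 were called in both directions. Of 94 such genes in 7 lists, 51 were tested, of which 31 were lower in the placodes, 14 were higher and 6 were not called, with a median log2 fold change of -0.75. The shares over all tested features were 40.4% lower and 35.7% higher. At least 2-fold, 23 were lower and 9 were higher, against 15.2% and 14.1% of tested features.

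Muscle progenitor genes included the largest differences in favour of the placodes among these lists. Of 16 such genes, 14 were tested, 8 were lower in the placodes, 5 were higher and 1 was not called, so the share called higher was close to the 35.7% of all tested features. Pax3, a factor of muscle progenitors and also of the dorsal neural tube and neural crest, was at 20.3 and 20.5 FPKM in the placodes and at 0.306 and 0.473 FPKM in the SMGs (log2 fold change 3.95 ± 0.10, adjusted p = 6.12e-07). Lbx1, needed by migrating muscle progenitors and by dorsal spinal cord neurons, was at 19.7 and 19.9 FPKM against 1.15 and 0.459 FPKM (log2 fold change 3.55 ± 0.18, adjusted p = 8.86e-06). Pax7, a factor of muscle stem cells and also of the dorsal neural tube, was at 12.7 and 11.5 FPKM against 1.27 and 0.763 FPKM (log2 fold change 2.71 ± 0.14, adjusted p = 1.02e-05).

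The placodes thus had Pax3, Pax7 and Lbx1 above 10 FPKM beside Myf5 and Myog listed at 0 and Myod1 at 0 and 0.0648 FPKM. Neuron markers were 8 of 8 higher in the placodes, against 35.7% of tested features. Their part in the levels of Pax3, Pax7 and Lbx1 was not tested. Also higher were Eya1, a cofactor of homeodomain factors, at 6.58 and 6.31 against 2.82 and 1.60 FPKM (adjusted p = 0.00107), and Isl1, of pharyngeal mesoderm and of motor neurons, at 1.49 and 1.91 against 0.958 and 1.03 FPKM (adjusted p = 0.0190).

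Other progenitor genes were lower in the placodes, and some of them, such as Barx2, are also used in epithelium. Barx2 was at 69.1 and 61.1 FPKM in the SMGs and at 0.212 and 0.301 FPKM in the placodes (log2 fold change -5.72 ± 0.09, adjusted p = 1.94e-07). Cdh15, the cadherin of myoblasts, was at 5.22 and 3.77 FPKM against 0 and 0.105 FPKM (log2 fold change -2.37 ± 0.16, adjusted p = 2.77e-05). Msc, the gene of musculin in jaw muscle progenitors, was at 5.49 and 1.76 FPKM against 0.207 and 0.0960 FPKM (adjusted p = 0.00399), and its 2 SMG values were 3.11-fold apart.

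Further progenitor genes moved less. Log2 fold changes were -1.36 for Eya2, -1.28 for Tbx1, -0.93 for Six4 and -0.33 for Met, all called. Tcf21 and Itga7 missed the minimum, at 0.458 and 0.619 against 0.175 and 0.130 FPKM for Tcf21 and at 0.379 and 0.362 against 0.662 and 0.570 FPKM for Itga7, placodes first.

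Genes of myoblast fusion gave 3 lower, 2 higher and 1 without a call of 6 tested, against 40.4% and 35.7% of tested features. Mymk and Mymx, whose products myomaker and myomixer fuse myoblasts, were named after their values were seen. Mymk was at 3.91 and 3.08 FPKM and Mymx at 5.45 and 4.37 FPKM in the SMGs, and both were listed at 0 in both placode samples (adjusted p = 1.95e-05 and 8.82e-06). Cdon, a receptor on myoblasts and on many other cells, was the highest of the list in the SMGs, at 36.1 and 35.7 FPKM against 7.10 and 8.75 FPKM (adjusted p = 5.94e-06). Jam2, a junction protein, was higher in the placodes, at 32.2 and 30.2 FPKM against 1.80 and 1.86 FPKM (adjusted p = 4.02e-07), as was Adgrb3 (log2 fold change 0.94, adjusted p = 4.97e-04).

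Of 32 further sarcomere genes, 8 passed the minimum, 6 of them lower and 2 higher in the placodes, against 40.4% and 35.7% of tested features. Tpm1, a tropomyosin of muscle and of other cells, was the highest in the SMGs, at 187 and 195 FPKM against 71.1 and 68.8 FPKM (adjusted p = 1.78e-06). Tpm3, another tropomyosin in wide use, was the highest in the placodes, at 94.3 and 91.9 FPKM against 65.5 and 59.3 FPKM (adjusted p = 2.21e-04). Myl6b, a light chain of slow muscle and non-muscle cells, was also higher there, at 16.7 and 19.3 FPKM against 5.93 and 5.32 FPKM (adjusted p = 2.18e-05). The 2 genes higher in the placodes are not limited to muscle.

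Calcium and membrane genes gave 6 lower, 2 higher and 1 without a call of 9 tested, against 40.4% and 35.7% of tested features. Atp2a2, a calcium pump of slow muscle, heart and most other cells, was the highest of its list in both groups, at 67.8 and 73.9 FPKM in the placodes and 81.8 and 70.9 FPKM in the SMGs, with a log2 fold change of -0.10 and a 95% interval from -0.30 to 0.09. Higher in the placodes were Cacnb1, a calcium channel subunit (log2 fold change 1.09, adjusted p = 2.5e-05), and Asph, a protein of the reticulum (0.30, adjusted p = 0.00288).

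The dystrophin complex gave 3 lower, 2 higher and 1 without a call of 6 tested, against 40.4% and 35.7% of tested features. Its highest gene in both groups was Dag1, the gene of dystroglycan, at 33.7 and 32.2 FPKM in the placodes and 37.5 and 34.2 FPKM in the SMGs (adjusted p = 0.129). Higher in the placodes were Dtna (log2 fold change 1.92, adjusted p = 1.7e-05) and Dmd, the gene of dystrophin (0.52, adjusted p = 0.00584).

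End plate and energy genes were few. Of 5 tested end plate genes, 3 were lower and 1 was higher, against 40.4% and 35.7% of tested features. The higher one was Ache, the gene of acetylcholinesterase at nerve endings. It was at 23.7 and 22.9 FPKM in the placodes against 2.86 and 1.72 FPKM in the SMGs (adjusted p = 1.32e-05). Lrp4, a receptor of nerve-derived agrin, was the highest in the SMGs, at 3.98 and 4.33 FPKM, and had no call against the placodes (adjusted p = 0.236). Of 3 tested energy genes, 2 were lower and 0 were higher, against 40.4% and 35.7% of tested features. Eno3, a muscle enolase, was the highest of the energy genes in both groups. It was at 6.44 and 7.23 FPKM in the placodes and 9.23 and 8.04 FPKM in the SMGs (adjusted p = 0.0336).

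**Figure D4:**
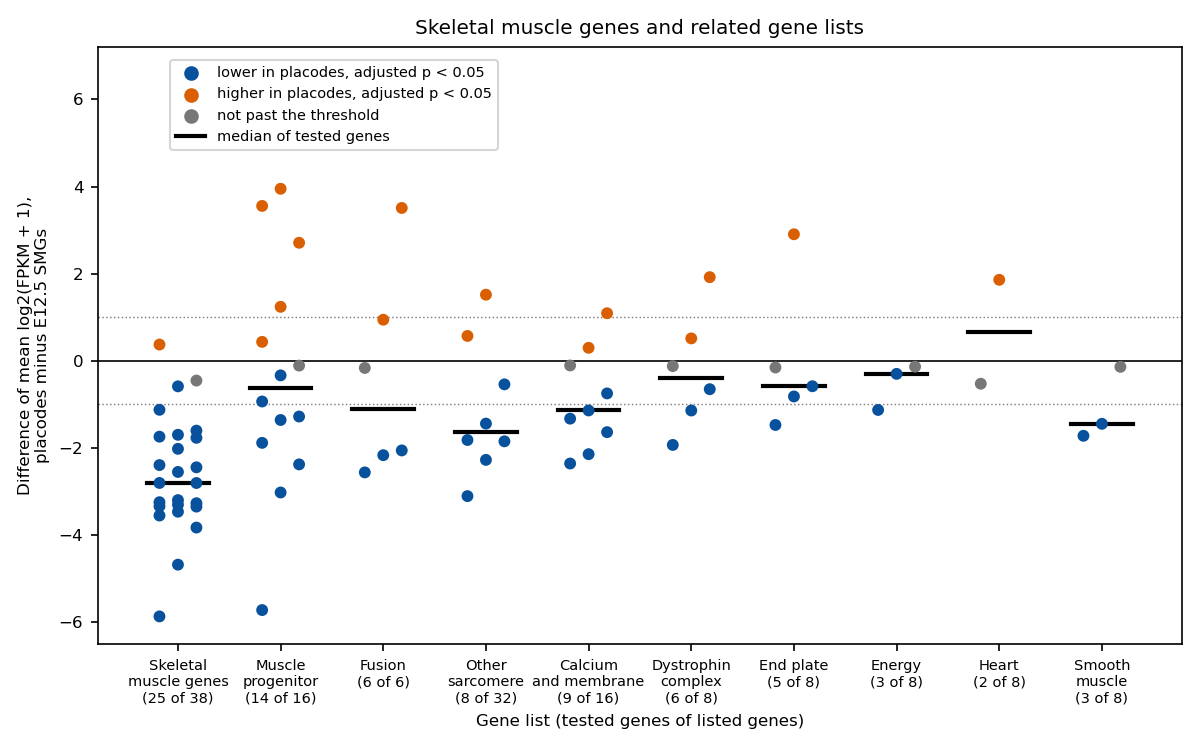
Each point is 1 tested gene, the y axis is the difference of mean log2(FPKM + 1), placodes minus E12.5 SMGs, and the bars are medians of the tested genes of each list. The skeletal muscle genes lie almost all below 0, with a median of -2.80, while each of the other lists plotted, except energy and smooth muscle, has genes on both sides.

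Several of the 38 genes are shared with the heart, among them Actc1, Tnnt2, Tnnc1, Myl4, Casq2, Actn2 and Myh7. Of 8 heart markers, 2 reached 1 FPKM in both SMG samples, Tnni3 at 1.88 and 1.01 FPKM and Hcn4 at 1.50 and 1.79 FPKM. Their sum was 6.04 and 4.70 FPKM in the SMGs and 9.63 and 9.62 FPKM in the placodes, most of it Hcn4, at 8.41 and 8.79 FPKM. In the SMGs Myl7, the atrial light chain, was at 0 and 0.0840 FPKM, Nppa, the atrial natriuretic peptide gene, at 0 and 0.0833 FPKM, Gata4 at 0.0185 and 0.0143 FPKM and Myl2, the ventricular and slow regulatory light chain, was listed at 0 in both. Nkx2-5, a factor of the heart and of pharyngeal tissue, was at 1.65 and 0.885 FPKM, and Myh6 at 0.814 and 0.744 FPKM. Both SMG samples were above both placode samples for 4 of the 8 heart markers, Nkx2-5 and Myh6 among them, against 34.2% of features. Gata4, Nppa and Hcn4 had the opposite order, 3 of the 8, against 29.6% of features. The part of heart tissue in the results on the 38 genes was not tested.

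Smooth muscle markers had a larger sum in the SMGs, and 2 of 3 tested genes were called lower in the placodes, against 40.4% of tested features. The sum was 55.6 and 44.7 FPKM against 16.8 and 16.1 FPKM in the placodes, and Acta2 (log2 fold change -1.72, adjusted p = 7.84e-05) and Smtn (-1.44, adjusted p = 1.19e-05) were lower in the placodes and Tagln was not called (-0.14, adjusted p = 0.425). Of the 8 markers, 3 reached 1 FPKM in both SMG samples. Below that level in the SMGs were Myh11 at 0.553 and 0.654 FPKM and Myocd at 0.142 and 0.112 FPKM, and 0 of the 8 were listed at 0 in both. The part of smooth muscle in the results on the 38 genes was not tested.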

How the data were processed

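RNA-seq values of 2 placode samples and 2 E12.5 SMG samples were used, grouped by the sample labels. The authors mapped reads with HISAT2 and deposited the FPKM of each feature in each sample. The submitters' processing notes name the builds GRCm38 and GRCh38. The HISAT2 version, annotation, counter and strandedness are not given in the sources used here. No steps of whole reads were seen, so the depth is unknown, and no counting intervals are given. Of 24771 features, 22036 were Ensembl genes and 2735 were assembled loci. Positions and shared exons came from GENCODE M21 (GRCm38), and promoter windows from RefSeq (GRCm38.p6).

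Features whose FPKM averaged at least 1 across all 4 samples were tested as log2(FPKM + 1) with limma 3.58.1 in R 4.3.3 (lmFit, eBayes with trend, group as the only term), two-sided, with Benjamini-Hochberg adjustment over all 13193 tested features. Unless a sentence says otherwise, every adjusted p is of this fit, errors after ± on log2 fold changes are SEs, and fold changes are placodes minus SMGs on the log2(FPKM + 1) scale, which understates changes of low genes. No fold change is given against a group listed at 0. A listed 0 may be a failed estimate. The fit with no minimum covers all 24771 features. Figures were drawn with Python 3.11.15 and matplotlib 3.10.9. The procedure was tested on simulated data.

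All 38 genes are named. Outside them, the rule names every progenitor gene (some are not reported here) and, of each other muscle list, the highest gene in each group and any gene called higher in the placodes. Markers of other cell types, Chrne, Chrnb1, Mymk, Mymx and the adult myosin heavy chains were named in addition, after their values were seen. The genes and lists were chosen with earlier results of these data known. Alternatives, given in the closing section, changed 1 choice at a time: pseudocount, scaling, minimum FPKM, eBayes setting, replicate number as a block, and each sample left out. Protein sequences and the reads were not used here.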

Additional observations from a re-analysis of the deposited data

How the results depend on the processing

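Over 15 alternatives to the test, no fold change of the 25 tested genes changed sign. Of their 360 fold changes, 352 kept their side of the threshold, 7 lost a call and 1 gained one, and for 22 genes every alternative left the call as it was. The other 3 are Mylpf, Mybpc1 and Myom1, whose values stand with them above. Scaling, pseudocount and eBayes settings left 23 genes lower and 1 higher. A minimum mean FPKM of 5, which leaves fewer genes to test, gave 9 lower, 9 at least 2-fold lower and 0 higher, and of the other muscle genes 10 lower and 9 higher. With no minimum, 0 of the 38 genes were higher. Leaving out 1 sample, which leaves a group of 1 assumed to vary like the other group, gave 22 to 24 lower, 0 to 1 higher and a median log2 fold change from -3.06 (without SMG sample 2) to -2.53 (without SMG sample 1). This median was -4.66 with a pseudocount of 0.1, -5.98 with 0.01, -1.72 with no minimum and -3.40 with a minimum of 5 (a pseudocount sets the scale, a minimum the genes that enter). Genes at the detection level in both SMG samples numbered 15 at 5 FPKM, and those in both placode samples numbered 14 at 0.1 FPKM and 1 at 5 FPKM. The samples share only a replicate number: across 13193 features the differences between samples 1 and 2 of the 2 groups had a correlation of -0.03. With the replicate number as a block, 23 genes were lower and 1 was higher, and over all features 5341 were lower and 4702 were higher. Without the block these were 5333 and 4716, and the balance turned to 4965 lower and 5074 higher with FPKM rescaled to an equal sum and to 5003 lower and 5090 higher with median-ratio scaling. The unknown depth limits statements on genes below 1 FPKM.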
